A study of Eriocheir sinensis with 6 samples.

Results

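The promoter-class peaks that begin downstream of an annotated transcription start site were examined in muscle of the Chinese mitten crab, *Eriocheir sinensis*. From the merged ATAC-seq peaks of 6 libraries, those on chromosome-level sequences were taken whose class was promoter and whose distance to the start site was above 0 and at most 3000 bases. This gave 5994 of 104657 merged peaks (5.73%), on 72 chromosomes and linked to 4724 genes, and they are called downstream peaks here. The distance was that from the start site to the nearer edge of the peak, read along the gene, so none of these peaks covers the start site of its own gene. A further 448 such peaks on unplaced sequences were left out. The neighbouring classes used for comparison were 6372 promoter-class peaks that cover a start site and 6868 that lie upstream of one.

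Healthy farmed crabs were sampled at the pre-molt stage (D, 3 libraries) and at the post-molt stage (A, 3 libraries), with the same mean body weight stated for every library. The 2 groups differed only in stage as far as the labels state, and no treatment, genotype or sex was given for either. The study's methods describe juvenile crabs and walking-leg muscle, with each sample from a different crab. The spread between libraries thus includes that between animals. The files do not pair gene identifiers with names, so muscle and other cell types could not be checked by marker genes. In whole tissue, a change in the share of nuclei of a cell type and a change of accessibility within nuclei cannot be told apart.

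ATAC-seq marks open chromatin, because the Tn5 transposase cuts DNA where nucleosomes do not protect it. The start site of an active gene usually lies in such a nucleosome-depleted region, and the first exon and first intron just downstream can hold further regulatory elements, alternative start sites and binding sites of transcription factors. In crustaceans the molt cycle is driven by ecdysteroid hormones, and claw muscle shrinks before the shell is shed and is rebuilt afterwards. The comparison of stages asks which of the elements downstream of start sites were more or less open after the shed than before it.

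The 6 libraries held between 10992785 and 16985168 reads in merged peaks, of which 583024 to 933676 lay in downstream peaks, and the median downstream peak held 46 to 59 reads per library. Pre-molt replicate 2 had 36.7% of its reads in merged peaks, against 23.8% to 27.9% in the other libraries. Over the counts of downstream peaks, libraries of a stage had a mean Spearman's rho of 0.836 (0.807 to 0.871), and libraries of unlike stages one of 0.737 (0.665 to 0.791). No libraries agreed within sampling noise, as replicates of a stage gave a chi-square per degree of freedom of 5.04 to 16.9.

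Downstream peaks were narrow, and most were seen in few libraries. Their median width was 324 bases (quartiles 237 and 501, range 200 to 3284), close to the 347 bases of all merged peaks and below the 716 bases of peaks covering a start site. The distance had a median of 1192.5 bases, and 2557 peaks began within 1 kb of the start site, 1927 at 1 to 2 kb and 1510 at 2 to 3 kb. The number of peaks per 250 bases fell from 731 in the first window to 374 in the last. Most downstream peaks (4840, 80.7%) lay wholly inside the linked gene, 412 (6.87%) crossed its annotated end and 742 (12.4%) lay past the end of a gene shorter than the distance. In the authors' lists of peaks called in each library, 2950 downstream peaks (49.2%) had a call in 1 library and 802 (13.4%) in all 6. Over all merged peaks these shares were 42.3% and 19.1%, and of the peaks covering a start site 60.5% were called in all 6.

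Reads were sparser in downstream peaks than in peaks at the start site of genes. CPM is the read count scaled to the reads of the library in merged peaks, with TMM factors, and read density is CPM per kb of peak. In downstream peaks it was 21.1, 25.5 and 20.4 before the molt (replicates 1, 2 and 3) and 20.3, 20.7 and 19.0 after it. Peaks covering a start site held 25.8, 41.0 and 30.2 CPM per kb before the molt and 28.5, 27.4 and 24.8 after it. The downstream density was thus below that of start-site peaks in 6 of 6 libraries, by a mean log2 difference of -0.47 ± 0.14 (SD, n = 6), or 1.38-fold (exact two-sided sign-flip permutation test, p = 0.03125, the smallest that 6 libraries allow, 0.0469 adjusted over 3 density comparisons). Against upstream peaks the mean log2 difference was -0.07 ± 0.06 (SD, n = 6), lower in 5 of 6 libraries (exact p = 0.0938). With the median density of single peaks in place of summed reads, the difference from upstream peaks was -0.21 and reached p = 0.03125 in the same exact test.

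Within the downstream class, the peaks nearest the start site were not the densest. Peaks within 1 kb held 20.2 ± 1.97 CPM per kb (SD, n = 6), those at 1 to 2 kb 21.7 ± 2.27 and those at 2 to 3 kb 22.2 ± 2.74. The near peaks were below the far ones in 6 of 6 libraries, by a mean log2 difference of -0.13 ± 0.05 (SD, n = 6; exact sign-flip p = 0.03125, 0.0469 adjusted over the 3 comparisons). With medians of single peaks the same difference was only -0.0185 (exact p = 0.3125), so it was seen in summed reads and not in the typical peak. The plot of read density by library shows these values beside those of the other promoter classes.

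**Figure D1:**
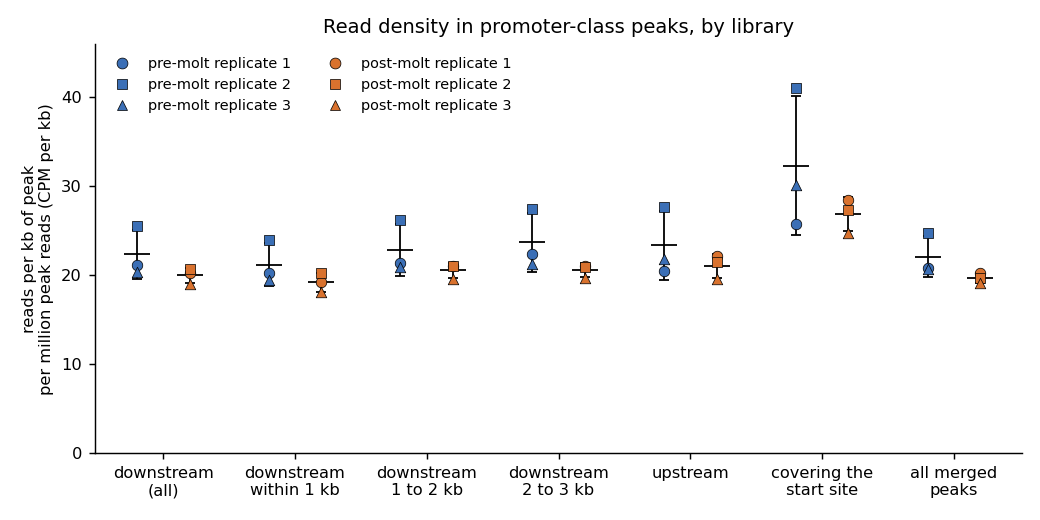
Read density (CPM per kb of peak, vertical axis from 0) in downstream peaks, in their 3 distance bins, and in upstream, start-site and all merged peaks. Each symbol is 1 library, black lines are stage means and bars their SD (n = 3). Downstream peaks lie between 19.0 and 25.5 in all 6 libraries, below start-site peaks in each library, and pre-molt replicate 2 is the highest library in every set. That height depends on the scaling, since CPM is divided by a TMM factor, 0.8411 for this library and 1.002 to 1.089 for the others. By share of peak reads, without TMM factors, post-molt replicate 2 was the highest for downstream peaks (5.59%, against 5.50% in pre-molt replicate 2).

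Between stages, 619 of the 5994 downstream peaks (10.3%) changed in accessibility, 403 higher and 216 lower after the molt. Changes were tested with edgeR on the read counts of all merged peaks, with a Benjamini-Hochberg adjusted p below 0.05, and log2 changes are post-molt over pre-molt. Over all merged peaks 9.95% were called, 6.08% higher and 3.86% lower, against 6.72% and 3.60% of the downstream peaks. The share called among downstream peaks was therefore near that of the whole table. The median log2 change was 0.03 over all downstream peaks and -0.03 over all merged peaks. The risen peaks had a median log2 change of 1.63 (3.10-fold, range 0.96 to 3.90) and the fallen peaks one of -1.40 (2.64-fold, range -3.99 to -0.89). In 1042 downstream peaks (17.4%) every post-molt library was above every pre-molt library, and in 688 (11.5%) every one was below. The same pattern held for 15.0% and 12.1% of all merged peaks.

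The share of risen peaks depended on the scaling and the number of calls on single libraries. Of the changed downstream peaks 65.1% had risen with TMM factors. With the median log2 CPM of each library set to the same value, the counts were 308 higher and 276 lower (52.7% higher). With library totals, here the reads in merged peaks without TMM factors, they were 505 and 165 (75.4% higher). These settings moved the median log2 change of all merged peaks from -0.03 to -0.15 and to 0.13, and downstream peaks lay above it in each (-0.09 and 0.18). The share higher exceeded that of all merged peaks in 14 of 14 alternative settings, and the share lower was below it in 12 of 14. Leaving out post-molt replicate 2 left 232 changed peaks (147 higher, 85 lower), leaving out pre-molt replicate 3 left 354 (186 and 168), and leaving out post-molt replicate 3 left 411 (306 and 105). Post-molt replicate 2 was the library with the highest CPM in 257 of the 403 risen peaks (63.8%), against 22.4% of all downstream peaks. Pre-molt replicate 2 was the highest in 124 of the 216 fallen peaks (57.4%), against 19.5% of all downstream peaks. A call was kept in all 14 settings, every leave-one-out fit included, by 90 of the 403 risen and 59 of the 216 fallen peaks.

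Risen and fallen peaks differed in level. The risen peaks held a median of 62.8 reads per library on average, and the fallen peaks 202. Downstream peaks were cut into quintiles by read number. The top quintile had 6.01% risen and 11.3% fallen peaks and a median log2 change of -0.22, and the middle quintile 10.3% and 0.999% and a median of 0.12. All merged peaks within the same limits of read number gave 3.78% and 10.2% for the top quintile and 9.05% and 2.44% for the middle one. Offsets fitted by loess to the level of each library brought the median of the top quintile of downstream peaks to -0.01, with 9.09% risen and 8.92% fallen there. The plot of change against level shows the risen peaks spread over low and middle levels and the fallen peaks reaching the highest.

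**Figure D2:**
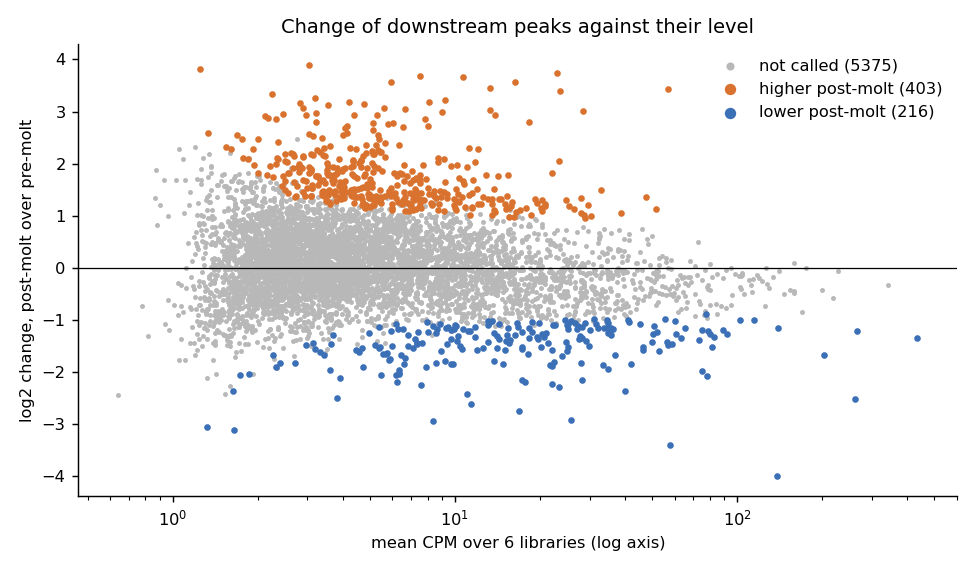
Log2 change of each of the 5994 downstream peaks (vertical axis, post-molt over pre-molt) against its mean CPM over 6 libraries (horizontal log axis). Grey points did not pass the edgeR test, orange points are the 403 risen and blue points the 216 fallen peaks, whose median read numbers were 62.8 and 202.

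Peak calls of single libraries followed the changes. Of the 403 risen downstream peaks, 324 (80.4%) had no peak call in any pre-molt library, while this held for 29.0% of all downstream peaks. Of the 216 fallen peaks, 106 (49.1%) had none in any post-molt library, against 31.9% of all downstream peaks. Over all merged peaks the shares were alike, 80.6% of the risen and 46.5% of the fallen, so they are not particular to downstream peaks. Calls and counts come from the same reads, and these shares are a description. Peaks called in all 3 post-molt and no pre-molt library numbered 83 (1.38%, against 1.4% of all merged peaks), and the reverse pattern held for 104 (1.74%, against 1.68%). The number of downstream peaks with a call was 2222, 2648 and 2610 before the molt and 2131, 2638 and 2331 after it, and the stage ranges overlap. The difference of the stage means, -127 peaks, was within this spread (exact two-sided permutation test, p = 0.6, where 3 against 3 libraries cannot go below 0.1). The share of peak reads that fell in downstream peaks was 5.42%, 5.50% and 5.24% before the molt and 5.33%, 5.59% and 5.30% after it. Its stage means of 5.39% ± 0.132 and 5.41% ± 0.158 (SD, n = 3 each) differed by 0.0213 percentage points (exact p = 0.9), which is within the spread of the libraries.

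With distance from the start site the share of changed peaks rose, mainly in the outermost kb. Within 1 kb, 148 peaks rose (5.79%) and 79 fell (3.09%). At 1 to 2 kb, 118 rose (6.12%) and 75 fell (3.89%), and at 2 to 3 kb, 137 rose (9.07%) and 62 fell (4.11%). In 250-base windows the share risen was smallest in the first window (3.83%) and largest at 2251 to 2500 bases (10.4%), but it did not climb evenly, since 1501 to 1750 bases gave 4.34%. The far bin had the larger share risen in 14 of 14 alternative settings, and without post-molt replicate 2 the shares were 2.11% within 1 kb and 3.38% at 2 to 3 kb. Upstream of start sites the order was the same, with 4.63% risen within 1 kb and 6.63% at 2 to 3 kb.

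The mean change of all peaks in a bin did not show this order. The mean log2 CPM of far minus near downstream peaks was -0.01, 0.02 and -0.02 in the pre-molt libraries and 0.03, -0.02 and 0.03 in the post-molt libraries. The stages overlap in this measure, and their means differed by 0.0158 (exact permutation p = 0.5). The median log2 change was 0.05 within 1 kb, 0.02 at 1 to 2 kb and 0.03 at 2 to 3 kb.

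**Figure D3:**
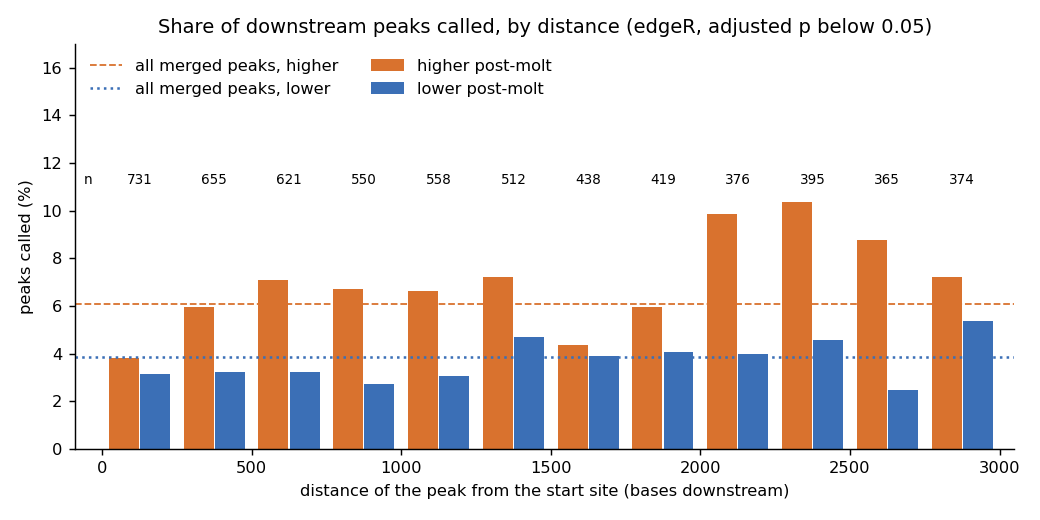
Percent of downstream peaks called higher (orange) or lower (blue) after the molt in 250-base windows of distance from the start site, with the number of peaks per window above the bars. Dashed and dotted lines give the shares over all merged peaks, 6.08% higher and 3.86% lower, and the highest bars are the windows between 2001 and 2500 bases, at 9.84% and 10.4%.

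Of peaks inside the gene 6.71% rose and 3.43% fell, and of those past its end 7.95% and 3.37%, both near the 6.72% and 3.60% of all downstream peaks. Of the 412 peaks across the gene end 19 rose (4.61%) and 25 fell (6.07%). They had a smaller share risen and a larger share fallen than peaks inside the gene in 14 of 14 alternative settings, and without post-molt replicate 2 the counts were 7 and 12. The difference in shares was not tested. These were wider (median 488.5 bases) and more often called in all 6 libraries (29.1%) than downstream peaks in general, and their median read number was 83.3 against 51.7.

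For each distance bin and direction, the 4 called peaks with the largest change were taken among those with a mean of at least 30 reads per library and stages that did not overlap. Larger called changes outside these limits, such as a log2 change of 3.82 at 2 to 3 kb, are not described. In the 24 peaks so chosen, every risen peak was highest in post-molt replicate 2. None of the 12 risen peaks had a peak call before the molt, and 9 of the 12 fallen peaks had none after it. The edgeR call held in all 14 settings for 21 of the 24. Genes are given by the identifiers of the authors' annotation and positions by its sequences, since no gene names accompany them.

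Within 1 kb the largest rise among them was that of a peak 946 bases downstream of evm.TU.CM024107.1.248 (CM024107.1, 5267016 to 5267337), past the end of this short gene. It held 0.892, 0.070 and 0.174 CPM before the molt and 1.03, 10.9 and 5.18 CPM after it, in replicates 1, 2 and 3. Post-molt replicate 1 was barely above pre-molt replicate 1, so the stages were apart by little (log2 change 3.90, SE 0.74, edgeR adjusted p = 0.00218). A clearer separation was seen 117 bases inside evm.TU.CM024145.1.813 (CM024145.1, 22329531 to 22329877, minus strand). This peak went from 1.38, 0.700 and 0.696 CPM to 8.09, 16.8 and 8.02 CPM, with a log2 change of 3.56 (SE 0.44, edgeR adjusted p = 9.64e-05). All 3 post-molt libraries carried a peak call here and no pre-molt library did.

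A broad region opened in evm.TU.CM024122.1.9, a long gene of 218963 bases, beginning 764 bases after its start site (CM024122.1, 115224 to 118245). Over its 3022 bases it held 11.4, 7.42 and 9.92 CPM before the molt and 54.7, 199 and 57.8 CPM after it. The lowest post-molt library was well above the highest pre-molt library (log2 change 3.44, SE 0.44, edgeR adjusted p = 0.000107).

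The largest fall of all downstream peaks lay 846 bases downstream of the start site of evm.TU.CM024112.1.203, across the end of the gene (CM024112.1, 6972059 to 6974159, plus strand). Its level was 447, 216 and 118 CPM before the molt and 14.5, 20.0 and 14.5 CPM after it. The pre-molt libraries spread widely, yet even the lowest stood far above every post-molt library (15.9-fold lower after the molt, log2 change -3.99, SE 0.42, edgeR adjusted p = 3.59e-05). In evm.TU.CM024157.1.143 (plus strand) peaks fell at 417 and at 1296 bases. The nearer one (CM024157.1, 4562855 to 4563290) went from 32.5, 83.9 and 20.4 CPM to 4.56, 6.31 and 7.27 CPM (log2 change -2.91, SE 0.43). The farther one (4563734 to 4564637) went from 76.2, 188 and 51.9 CPM to 10.1, 8.04 and 11.8 CPM (log2 change -3.40, SE 0.41, edgeR adjusted p = 7.84e-05). Pre-molt replicate 2 was the highest library in both, and the stages did not overlap in either, which the choice of peaks required.

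Peaks of genes on opposite strands fell on CM024127.1. The gene evm.TU.CM024127.1.295 (minus strand) had fallen peaks at 453 bases (7955453 to 7955889) and at 2265 bases (7953733 to 7954077), and evm.TU.CM024127.1.294 (plus strand) one at 62 bases (7917891 to 7918418). The peak at 453 bases held 22.1, 45.0 and 21.1 CPM before the molt and 5.08, 3.78 and 4.18 CPM after it (log2 change -2.76, SE 0.36, edgeR adjusted p = 0.000155). The peak at 2265 bases had a log2 change of -2.42 (SE 0.37). In evm.TU.CM024127.1.294 the level was 16.0, 15.3 and 6.26 CPM and then 3.10, 2.05 and 2.76 CPM (log2 change -2.25, SE 0.39, edgeR adjusted p = 0.00124). The stages were apart in all 3 peaks, as the choice of peaks required.

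At 1 to 2 kb, 3 of the 4 rises lay past or across the end of the linked gene. Past the end of evm.TU.CM024112.1.246 (444 bases long), the peak at 1077 bases rose from 1.95, 0.280 and 1.04 CPM to 3.36, 30.0 and 8.44 CPM (log2 change 3.69, SE 0.64, edgeR adjusted p = 0.00121). Its post-molt mean of 13.9 ± 14.1 CPM (SD, n = 3) shows how much replicate 2 weighed. The peak at 1592 bases in evm.TU.CM024154.1.291 had a log2 change of 3.19 and lost its call without post-molt replicate 2 (edgeR adjusted p = 0.123). Of the fallen peaks in this bin, that of evm.TU.CM024149.1.255 varied least before the molt, with 63.4, 69.1 and 68.6 CPM, and held 13.1, 8.43 and 17.5 CPM after it (log2 change -2.36, SE 0.33, edgeR adjusted p = 0.000231). The peak of evm.TU.CM024153.1.198 fell by 2.62 and that of evm.TU.CM024131.1.49 by 2.50 on the log2 scale. The latter held 12.3 CPM in pre-molt replicate 1 but 3.78 and 3.39 CPM in the others, and without that library its edgeR adjusted p was 0.0615.

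Neighbouring genes on CM024135.1 carried several risen downstream peaks. All 3 downstream peaks of evm.TU.CM024135.1.859 (minus strand, 2289 bases long) rose, at 63, 989 and 2237 bases from the start site. The one at 2237 bases, across the gene end (28770360 to 28771467), held 3.33, 2.38 and 3.91 CPM before the molt and 13, 90.1 and 25.2 CPM after it (log2 change 3.74, SE 0.52, edgeR adjusted p = 0.00025). The one at 989 bases rose from 4.54, 3.08 and 4.70 CPM to 16.6, 89.2 and 23.9 CPM (log2 change 3.40, SE 0.49). Post-molt replicate 2 was several times above the other post-molt libraries in both. The lowest post-molt library stayed above every pre-molt library, as the choice of peaks required. The peak at 1762 bases from evm.TU.CM024135.1.860 (28776258 to 28776774) went from 0.974, 1.61 and 2.09 CPM to 4.99, 45.5 and 8.77 CPM (log2 change 3.66, SE 0.60, edgeR adjusted p = 0.000789). Some way along the chromosome, all 3 downstream peaks of evm.TU.CM024135.1.862 (plus strand) rose as well, with log2 changes of 1.89, 3.58 and 2.93 at 838, 1165 and 2926 bases, of which the first lost its call without post-molt replicate 2 (edgeR adjusted p = 0.0539). The middle one (28881420 to 28882380) held 2.11, 2.66 and 2.78 CPM and then 20.5, 49.6 and 20.4 CPM (edgeR adjusted p = 7.43e-05), and here post-molt replicates 1 and 3 alone were far above the pre-molt level.

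At 2 to 3 kb, the peak of evm.TU.CM024141.1.345 (2485 bases from the start site, 10916980 to 10917459) rose from 3.0, 1.75 and 1.91 CPM to 10.5, 49.2 and 13.3 CPM (log2 change 3.45, SE 0.49, edgeR adjusted p = 0.000323). That of evm.TU.CM024145.1.641 rose to similar levels in each post-molt library, 5.16, 8.12 and 4.09 CPM, from 0.406, 0.840 and 0.522 CPM (log2 change 3.26, SE 0.48). The rise of evm.TU.CM024111.1.256 (log2 change 3.16) was carried by post-molt replicate 2, at 11.7 CPM against 0.775 and 2.67 CPM, and was lost without it (edgeR adjusted p = 0.281) and without pre-molt replicate 2 (0.0655). Among the fallen peaks, that of evm.TU.CM024112.1.226 went from 21.2, 13.2 and 10.1 CPM to 1.72, 1.34 and 2.67 CPM (log2 change -2.95, SE 0.40, edgeR adjusted p = 0.000176), and the stages were far apart. It lies on the same chromosome as the fallen peak of evm.TU.CM024112.1.203 and the risen peak of evm.TU.CM024112.1.246. The peak at 2816 bases in evm.TU.CM024156.1.184 fell by 2.29 on the log2 scale.

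**Figure D4:**
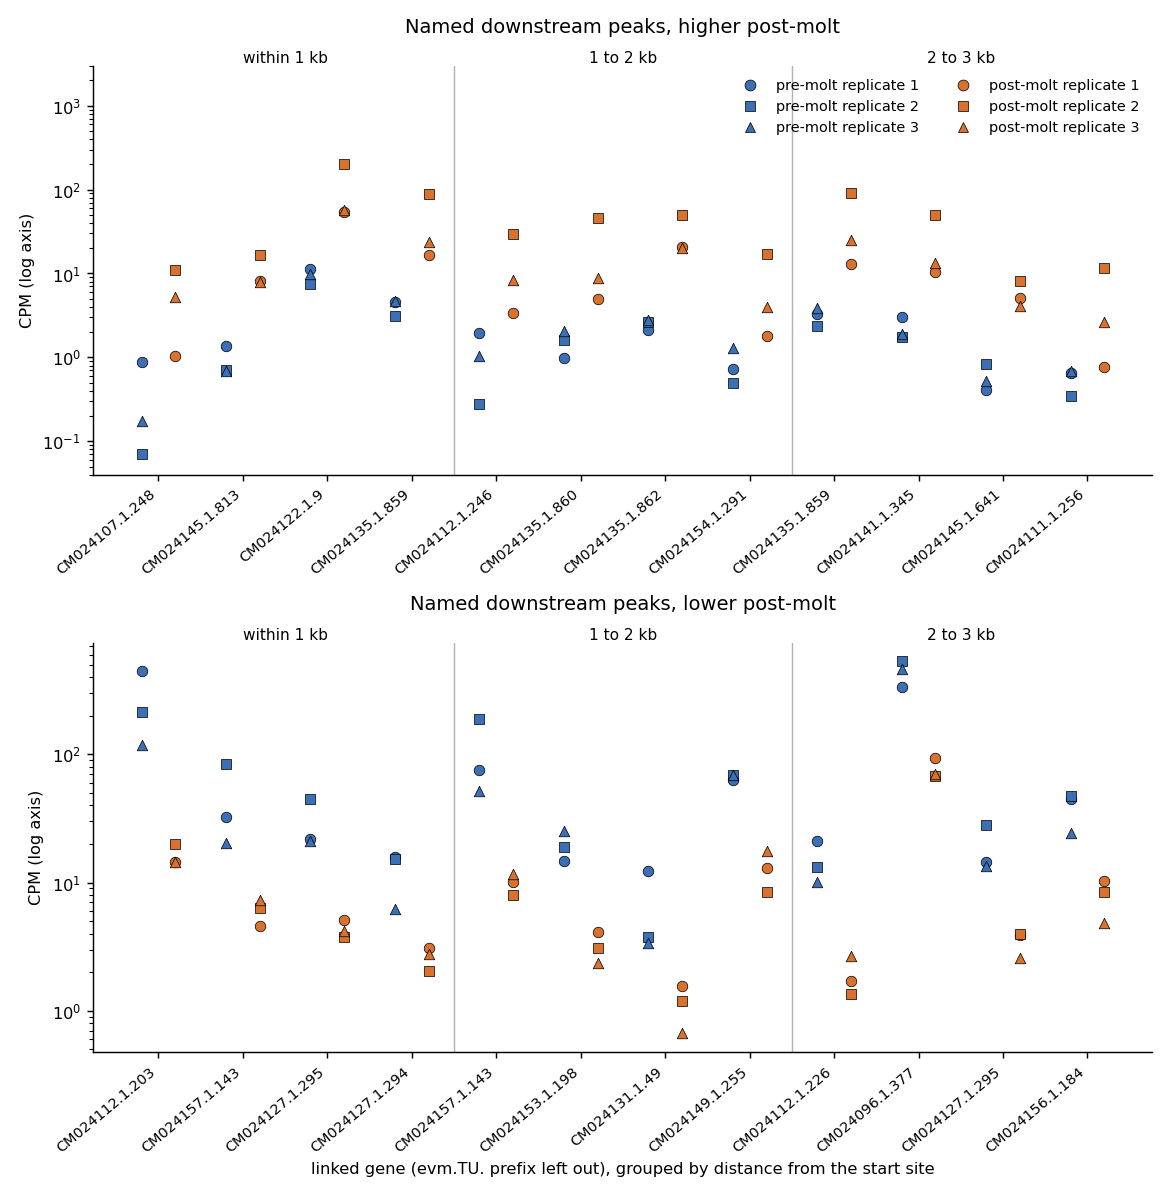
CPM (log axis) in each library for the 12 risen (upper panel) and 12 fallen (lower panel) downstream peaks with the largest called changes among those with a mean of at least 30 reads and stages that did not overlap, in 3 distance bins, labelled by linked gene. Blue symbols are pre-molt and orange symbols post-molt libraries, with a symbol shape per replicate number. Post-molt replicate 2 (orange square) is the top symbol in all 12 risen peaks, as for evm.TU.CM024122.1.9 at 199 CPM, and in each peak of the lower panel the blue symbols lie above the orange ones, which the choice of peaks required.

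Of the 5 strongest downstream peaks by mean CPM, 3 were lower after the molt and the others were not called. The strongest, 269 bases into evm.TU.CM024132.1.170 (CM024132.1, 6785019 to 6788075), held 384, 847 and 643 CPM before the molt and 284, 252 and 204 CPM after it. The stages did not overlap (log2 change -1.34, SE 0.31, edgeR adjusted p = 0.00849), but the call was lost without post-molt replicate 2 or 3 (0.106 each). Across the end of evm.TU.CM024096.1.377, the region of 2650 bases that begins 2611 bases from the start site (CM024096.1, 13501572 to 13504221) fell from 335, 532 and 465 CPM to 93.6, 68.3 and 70.9 CPM. This was a 5.72-fold fall, from 444 ± 100 to 77.6 ± 13.9 CPM (SD, n = 3 each), larger than the spread within either stage (log2 change -2.52, SE 0.31, edgeR adjusted p = 8.25e-05). The peak of evm.TU.CM024145.1.578 held 317, 517 and 315 CPM and then 308, 328 and 274 CPM, and that of evm.TU.CM024164.1.234 held 201, 321 and 178 CPM and then 247, 222 and 201 CPM. The stages overlapped in both (log2 changes of -0.33 and -0.06, edgeR adjusted p = 0.531 and 0.925). With loess offsets the peak of evm.TU.CM024164.1.234 was called as higher after the molt (edgeR adjusted p = 0.0223).

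Peaks on either side of the 3000-base limit were not called. The outermost peaks inside it, at 3000 bases in evm.TU.CM024097.1.248 and evm.TU.CM024116.1.187, had log2 changes of 1.00 and 1.03. The first of these was called with library totals and without pre-molt replicate 2 (edgeR adjusted p = 0.0401 and 0.0497). The nearest intronic peaks outside it, at 3002 bases in evm.TU.CM024155.1.414 and evm.TU.CM024160.1.48, had log2 changes of 0.13 and -1.05.

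Downstream peaks of the same gene did not change in opposite directions. Of the 4724 genes, 3653 had 1 downstream peak, 896 had 2, 151 had 3 and 24 had 4. A changed peak was found in 539 genes, 354 with a rise and 185 with a fall, and in 0 genes did downstream peaks change in both directions. Of the 72 genes with at least 2 changed downstream peaks, 45 had only risen and 27 only fallen ones. Over 1270 pairs of neighbouring downstream peaks of a gene, the log2 changes had a Spearman's rho of 0.67, a description only, since the pairs share libraries and depth and some share a peak.

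Genes with the most changed peaks showed this pattern at different levels. The gene evm.TU.CM024131.1.305 had 3 risen peaks within a gene of 3147 bases. At 720 bases (CM024131.1, 8949916 to 8950647) the level was 6.73, 11.5 and 9.83 CPM before and 25.1, 19.8 and 22.9 CPM after the molt (log2 change 1.27, SE 0.32, edgeR adjusted p = 0.0131). Here post-molt replicate 2 was the lowest of its stage, and the other peaks, at 1705 and 2262 bases, had log2 changes of 1.39 and 1.23. The call at 1705 bases was lost in 2 of the 14 alternative settings and that at 2262 bases in 7, median centring and loess offsets among them (edgeR adjusted p up to 0.0989), while that at 720 bases held in each. In evm.TU.CM024165.1.363 the 3 downstream peaks fell together, from 82.4, 111 and 373 CPM on average before the molt to 30.7, 47.5 and 160.1 CPM after it, at 741, 1804 and 2496 bases. The farthest of them ranks among the 5 strongest, held 272, 551 and 296 CPM and then 189, 158 and 134 CPM (log2 change -1.22, SE 0.32, edgeR adjusted p = 0.016), and lost its call without post-molt replicate 2 (0.139) or 3 (0.138). The nearer ones lost theirs without these libraries too, and that at 741 bases also without pre-molt replicate 2 (edgeR adjusted p = 0.0598). Falls at 2, 842 and 1522 bases in evm.TU.CM024146.1.598 had log2 changes of -1.15, -1.69 and -1.28. That at 842 bases was called in all 14 settings, that at 1522 bases was lost without post-molt replicate 2 or 3 (edgeR adjusted p = 0.0763 and 0.075), and that at 2 bases was lost in 7 settings, with edgeR adjusted p up to 0.179. Of the 4 downstream peaks of evm.TU.CM024119.1.159, those at 857, 1265 and 2027 bases fell and the one at 376 bases was not called (log2 change -0.75). None of these falls held in every setting, since that at 857 bases was lost in 9 of 14 (adjusted p up to 0.233, without pre-molt replicate 2) and the others in 3 each.

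For 1500 genes with both a downstream and a start-site peak, the changes of the 2 were related but not equal. Over these genes 6.07% of the start-site peaks rose and 5.13% fell. Across these genes the log2 changes had a Pearson's r of 0.65 and a Spearman's rho of 0.59, given as a description over genes that share the 6 libraries. Of 152 such genes with a risen downstream peak, the start-site peak also rose in 54 (35.5%), was not called in 98 and fell in 0. Of 75 genes with a fallen downstream peak, the start-site peak also fell in 31 (41.3%), was not called in 44 and rose in 0. The median log2 change was 0.18 for the downstream peaks of these genes and -0.06 for their start-site peaks. Start-site peaks as a class held more reads than downstream peaks (median 168.6 against 51.7). The median change also depended on read number, at -0.22 in the top quintile of downstream peaks. A contrast at equal read number was not tested. Per library, the mean log2 CPM of downstream minus start-site peaks was -0.76, -1.15 and -1.02 before the molt and -0.83, -0.73 and -0.76 after it. Pre-molt replicate 1 lay among the post-molt libraries, so the stages overlap. Their means differed by 0.21, with an SD of 0.20 before and 0.05 after the molt (n = 3 each). The exact two-sided permutation test gave p = 0.2, where 3 against 3 libraries cannot go below 0.1.

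**Figure D5:**
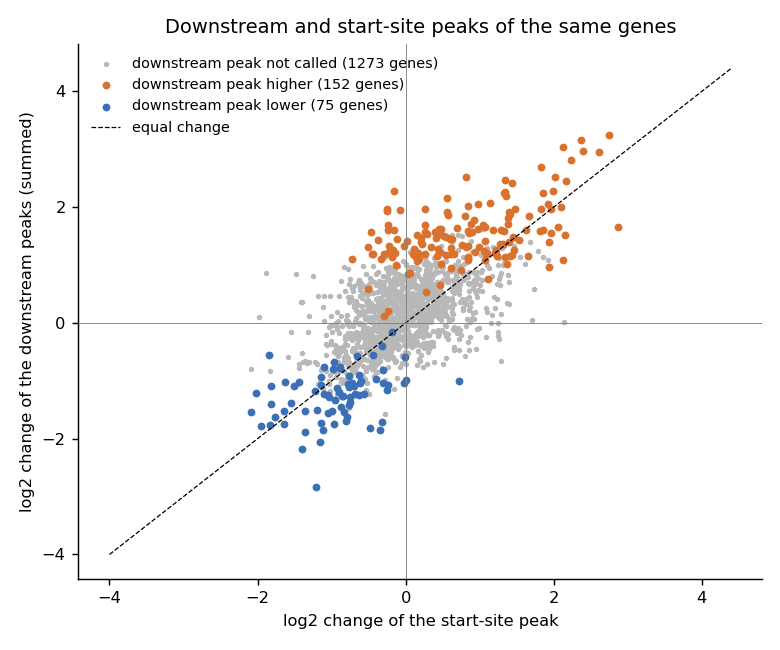
Log2 change of the summed downstream peaks (vertical axis) against that of the start-site peak (horizontal axis) for 1500 genes with both. Orange points are 152 genes with a risen and blue points 75 genes with a fallen downstream peak, and the dashed line marks equal change. The points spread along the line (Pearson's r of 0.65), and the colours follow from the downstream change itself.

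Downstream peaks changed more often in genes that also had a start-site peak. Of the 1868 downstream peaks in such genes 9.31% rose and 4.60% fell, against 5.55% and 3.15% of the 4126 in other genes. The 2932 peaks of genes with neither a start-site nor an upstream peak gave 4.71% and 2.22%. The order between genes with and without a start-site peak held in 14 of 14 alternative settings in both directions, and without post-molt replicate 2 the shares risen were 2.78% and 2.30%. The former peaks also held more reads (median 64.3 against 47.3), and the share called depends on read number. Within quintiles of read number the share risen was larger with a start-site peak in the lower 4 quintiles, as with 14.3% against 8.45% in the middle one, and not in the top one (5.65% against 6.24%). The share fallen was smaller with a start-site peak in the lower 3 quintiles and larger in the upper ones (12.6% against 10.5% in the top one). The shares themselves were not tested. As a mean over peaks, the log2 CPM of peaks in genes with minus without a start-site peak was 0.29, 0.42 and 0.21 before the molt and 0.45, 0.52 and 0.37 after it. The stages overlap, and the difference of 0.14 between their means, chosen after the data were seen, did not pass the test (exact permutation p = 0.2).

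The study names a set of signalling genes, most of them for G protein-coupled receptors, membrane proteins that pass signals of hormones and transmitters into the cell. Of 13 such genes with linked peaks that are reported here, 5 had a downstream peak, 7 peaks in all, of which 1 rose and 1 fell. Over all downstream peaks 6.72% rose and 3.60% fell, and 7 peaks are too few for a share to be set beside these. The study chose these genes with pre-molt and post-molt muscle among its samples, so they are not independent of these data. The risen peak lies 265 bases into mth2, named after methuselah, a fruit fly receptor known for its effect on lifespan (evm.TU.CM024134.1.314, CM024134.1, 13426820 to 13427273, minus strand). It held 1.22, 2.94 and 3.04 CPM before the molt and 5.60, 10.4 and 6.01 CPM after it. The stages did not overlap, but the call (log2 change 1.61, SE 0.41, edgeR adjusted p = 0.0146) was lost without post-molt replicate 2 (0.116) or pre-molt replicate 1 (0.0625). The start-site peak of mth2 held 8.28 ± 2.49 and 14.7 ± 2.63 CPM (SD, n = 3 each) and was not called (log2 change 0.82, edgeR adjusted p = 0.123).

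The fallen peak belongs to SSTR2, in vertebrates a receptor of the inhibitory hormone somatostatin (evm.TU.CM024152.1.288, CM024152.1, 8659217 to 8660937, minus strand). It begins 1169 bases from the start site and crosses the end of the annotated gene. It held 55.9, 85.7 and 55.4 CPM before the molt and 12.7, 18.8 and 23.3 CPM after it. This 3.59-fold fall was far larger than the spread within either stage (log2 change -1.84, SE 0.33, edgeR adjusted p = 0.00135) and was called in all 14 settings. No start-site peak was linked to SSTR2.

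The other downstream peaks of the list did not pass the test. At 10 bases into gpr161, a receptor that restrains hedgehog signalling in vertebrates, the level was 1.26 ± 0.509 CPM before and 2.57 ± 0.674 CPM after the molt (SD, n = 3 each; log2 change 1.04, edgeR adjusted p = 0.259). The peaks in sky, named as the fruit fly gene for a protein of synaptic vesicle traffic, lie at 1679 and 2171 bases and had log2 changes of 0.26 and 0.25. Its start-site peak rose from 3.90 ± 0.240 to 9.80 ± 4.42 CPM (SD, n = 3 each; log2 change 1.33, edgeR adjusted p = 0.0227), a call lost without post-molt replicate 2 (0.229) or any single pre-molt library. Its difference from the downstream peaks was not tested. The peaks of the unnamed gene evm.TU.CM024097.1.36, at 536 and 1011 bases, had log2 changes of 1.55 and 1.19 (edgeR adjusted p = 0.137 and 0.0923). FMRFaR, GRM7, moody, Kpna6, HTR4, the rhodopsin-like receptor gene and 2 unnamed genes of the list had no downstream peak.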

How the data were processed

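Per the labels, nuclei of muscle from 3 pre-molt and 3 post-molt crabs were profiled by ATAC-seq with paired reads. The submitters' processing notes name BWA and MACS2, and the study's methods describe peak calling per sample. Any shift for the Tn5 cut, the merging of peaks and the counting of reads are not given in the sources used here. The authors' deposited table gives whole-number read counts per merged peak, with no further normalization, and these were tested. It also holds RPM values that the authors derived from the counts, used here only to recover the 41050903 to 51652893 reads of whole libraries. It further holds a fold enrichment ratio per library, and the authors' log2 fold change, p-value and q-value of their own comparison, which were not used. The deposited peak lists give a MACS2 score, a fold enrichment signal and −log10 p and q values, which served only for overlap and for a stricter list (−log10 q of at least 5). Class, linked gene and distance are the authors' annotation, whose promoter reach of 3000 bases exceeds the 2000 of the study's methods. In the lists, peak names bear other library numbers than the titles, and files were assigned as deposited.

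Counts of all 104657 merged peaks were fitted with edgeR 4.0.16 (R 4.3.3; quasi-likelihood, TMM, stage only, no filter), with p-values adjusted over all peaks. Values per library were compared by exact permutation (3 against 3, smallest p 0.1) or exact sign flips over 6 libraries (smallest p 0.03125), with a prior count of 2 on the log2 CPM scale. Named peaks were, per distance bin and direction, the 4 with the largest called change, a mean of at least 30 reads and non-overlapping stages, then the 5 strongest, those beside the 3000-base limit, those of the 3 genes per direction with most called peaks (ties by CPM), and those of the study's signalling genes, 1 of which is not reported here. The members and lists were chosen with earlier results of these data known. Alternatives were DESeq2 1.42.0 and its size factors, limma 3.58.1 (trend), loess offsets, median centring, a count filter, a replicate block, and leaving out each library. A further one was library totals, the reads in merged peaks without TMM factors. Python 3.11.15, numpy 2.4.6, pandas 2.3.3, scipy 1.17.1, bedtools 2.31.1 and matplotlib 3.10.9 were used, and the test was tested on simulated data. The simulated counts had a single fixed dispersion rather than values estimated from these libraries, so they do not give the rate of false calls here. The counts include any PCR duplicates, and a median peak of 46 to 59 reads limits their precision. No sequence or motif was analysed here. All 6 libraries entered every comparison.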

Additional observations from a re-analysis of the deposited data

How the results depend on the processing

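Leaving out single libraries gave the largest shifts. The number of changed downstream peaks was then 232 to 497 (619 with all 6), with 85 to 185 within 1 kb, 70 to 161 at 1 to 2 kb and 77 to 156 at 2 to 3 kb. Keeping only peaks in at least 2 peak lists left 397 changed of 3044. DESeq2 called 696 and limma 605. The stage difference in the share of peak reads ranged from -0.0694 to 0.0763 percentage points without single libraries, so its sign depends on them. The density differences ranged from -0.51 to -0.43 (against start-site peaks) and from -0.14 to -0.12 (near against far), with exact p = 0.0625 throughout, the smallest that 5 libraries allow. By medians of single peaks they were -0.21 against upstream peaks and -0.0185 for near against far. The peak of evm.TU.CM024145.1.578 turned to 0.31 with loess offsets. That of evm.TU.CM024164.1.234 turned to 0.12 with library totals, 0.53 with loess offsets, 0.0062 without post-molt replicate 3 and 0.25 without pre-molt replicate 2, and ranged from -0.23 to 0.25 without single libraries. With loess offsets it was thereby called in the opposite direction (edgeR adjusted p = 0.0223). Over the named peaks 671 of the recomputed values kept direction and side of the threshold, 49 lost and 2 gained the call, and 5 turned sign. Replicate numbers did not pair the libraries (same-number correlations of -0.09 to -0.02, with 0 of 6 libraries closest to its own number), and with a replicate block 529 peaks changed (363 higher, 166 lower). With 3 libraries per stage, the exact tests of stage cannot pass 0.05, so their p-values do not show that stages were alike.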

Other observations

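The counts of changed downstream peaks by chromosome are set here beside the 6.72% risen and 3.60% fallen over all downstream peaks, and beside the shares of all merged peaks on the same chromosome. On CM024096.1, 0 of 116 downstream peaks rose and 5 fell, and on CM024099.1, 1 of 124 rose and 5 fell. Of all merged peaks on CM024096.1, 3.24% rose and 3.80% fell, and of those on CM024099.1, 2.996% rose and 4.57% fell. On CM024146.1, 18 of 116 rose (15.5%, against 9.51% of all merged peaks), with a median log2 change of 0.48 against 0.12. On CM024164.1, 20 of 134 rose (14.9%, against 9.95%), with a median of 0.30 against 0.26. The largest share risen was that of CM024159.1, 9 of 52 (17.3%, against 10.5%), with a median of 0.008 against 0.063. On CM024162.1, 10 of 63 peaks fell (15.9%, against 7.74%) and 8 rose (12.7%, against 11.5%). On CM024156.1, 10 of 89 fell (11.2%, against 6.04%), with a median log2 change of -0.27 against 0.01. These chromosomes were picked after their values were seen, and the differences between them were not tested.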
